A study of Mus musculus with 7 samples.

Results

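The genes described here encode the voltage-gated calcium channels, the voltage-gated sodium channels and the HCN channels of the mouse retina, with their auxiliary subunits. They were taken from the deposited count table as the protein-coding genes whose symbols begin with Cacna, Cacnb or Cacng, with Scn and a digit, or with Hcn. The photoreceptor calcium channel genes Cacna1f and Cacna2d4 were left out. This gave 42 of the 54532 genes in the table, of which 19 encode pore-forming alpha subunits of calcium or sodium channels, 4 encode HCN channels and 19 encode auxiliary subunits. There were 4 retina libraries of mice given angiotensin II (Ang II), a peptide hormone that raises blood pressure, and 3 retina libraries of mice given saline, all from day 28. The genotype is stated in conflicting ways: ApoE-/- for all mice in the series text and WT in the labels of the samples. The labels used here give no strain, age or dose, and do not say whether a library came from 1 animal. The p-values therefore measure the spread between these libraries, which may be partly technical.

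A voltage-gated calcium or sodium channel is built around a large alpha subunit, which forms the pore and carries the voltage sensors. Auxiliary subunits bind it and set how much of it reaches the membrane and how it gates. In the retina, calcium channels drive transmitter release at the ribbon synapses of photoreceptors and bipolar cells and at the conventional synapses of amacrine cells, and sodium channels carry the spikes of ganglion cells and of some amacrine cells. HCN channels open on hyperpolarization and are gated by cyclic nucleotides, and in photoreceptors they shape the response to light.

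With edgeR, 0 of the 38 channel genes that could be tested passed an adjusted p of 0.05, and over all 17078 genes tested 0 passed (0.0%). DESeq2 and limma-voom each called 0 of the 38, against 0.205% and 0.831% of all genes tested. An unadjusted edgeR p under 0.05 was found for 1 of the 38, or 2.63%, against 4.62% of all genes tested. That gene was Cacna1d, an L-type calcium channel gene, so that 1 of 38 lay higher at that level, against 2.9% of all genes tested, and 0 of 38 lower, against 1.72%. DESeq2 gave 1 of 38 at an unadjusted p under 0.05, against 4.67% of all genes tested, and limma-voom 7 of 38, against 15.4%. The groups did not overlap in 2 of the 38, against 5.91% of all genes tested. In Cacna1d Ang II was higher without overlap, as in 3.18% of all genes tested, and in Hcn2 it was lower without overlap, as in 2.73%. Of the 38, 15 had a log2 fold change above 0 and 23, or 60.5%, one below 0, where 48.9% of all genes tested were above 0 and 51.1% below. The median log2 fold change of Ang II over saline was -0.020 over 17 alpha subunit genes and -0.035 over 17 auxiliary subunit genes, and -0.0048 over all genes tested. The other 4 of the 42 genes had too few counts for a test.

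The difference was bounded more tightly in the median channel gene than in the median gene tested. The standard error (SE) of the log2 fold change had a median of 0.11 over the 38 channel genes and 0.15 over all genes tested. The 95% interval of the log2 fold change lay within 0.5 of 0 for 34 of the 38 and within 1 of 0 for all 38. Over all 17078 genes tested, these counts were 9372 and 13578. Wider intervals were found for Cacng8 and Scn9a, which have few counts, and for Hcn3, among others. The intervals cover the spread between these libraries, and a p that misses the threshold does not show that the groups were alike.

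**Figure D1:**
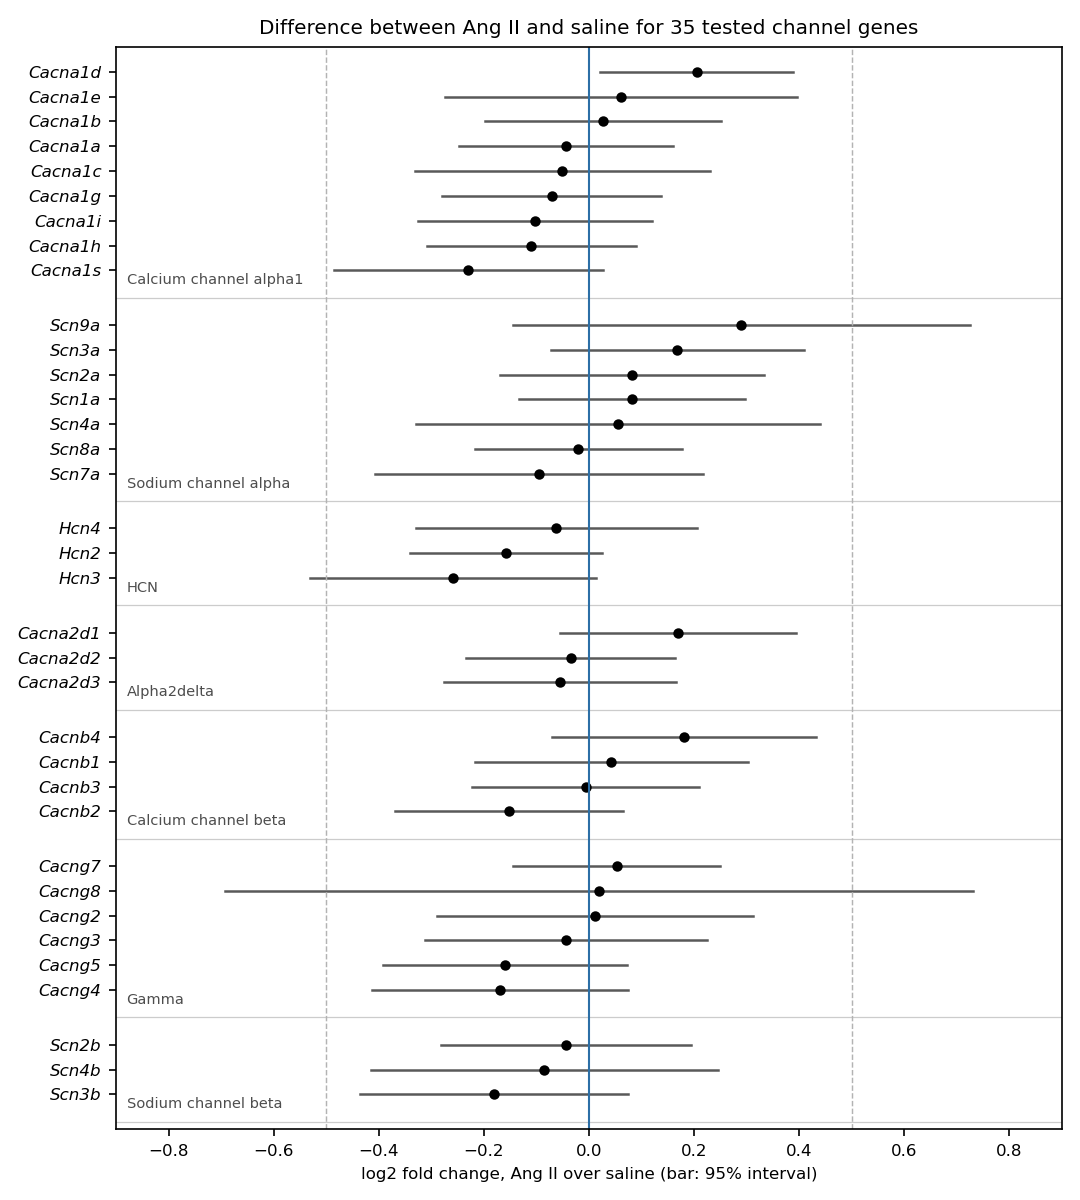
Log2 fold change of Ang II (4 libraries) over saline (3 libraries) for 35 of the 38 tested channel genes, grouped by subunit class; points are edgeR estimates, bars their 95% intervals, and dashed lines mark 0.5 on either side of 0. The interval of Cacna1d (0.022 to 0.39) is the 1 interval shown that does not include 0, and those of Cacng8, Scn9a and Hcn3 cross a dashed line.

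Total counts per library ranged from 14655431 to 17563493. Values of single libraries are given in the order of the replicate numbers, 1 to 4 for Ang II and 1 to 3 for saline. Rod photoreceptor genes, which define the labelled tissue, took 5.51% to 6.93% of the counts of every library. Apoe had 253 to 406 counts in the Ang II libraries and 150 to 304 counts in the saline libraries. Markers of neighbouring tissue differed between libraries. The 13 pigment epithelium markers took 0.137, 0.141, 0.197 and 0.111% of the counts in the Ang II libraries, against 0.0190, 0.0224 and 0.0985% in the saline libraries. This is a sum, and the markers were not alike. The groups did not overlap in 7 of the 13, against 5.91% of all genes tested, and 1 of the 13 had a log2 fold change below 0. The 12 skeletal muscle markers took 0.0280% of the counts in Ang II replicate 3 and 0.000464% to 0.00250% in the other 6 libraries. Ang II replicate 3 stood apart for muscle genes and saline replicate 2 for the number of genes detected (21260, against 24024 to 24846 in the other libraries). The 10 rod, 8 cone and 9 bipolar cell markers were all below 0 in the comparison of Ang II with saline, with median log2 fold changes of -0.21, -0.18 and -0.17. Markers of other retinal cells were mixed. Of the tested ganglion cell markers 4 lay above 0 and 6 below, of amacrine 2 and 7, of horizontal 3 and 2, and of Muller glia 3 and 4. Their medians were -0.012, -0.030, 0.12 and -0.078. In bulk retina, fewer cells of a type and less RNA per cell cannot be told apart.

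Levels of different genes were compared per length, as CPM (counts scaled to the TMM-adjusted library size) divided by the exonic length of the gene in kb. On that scale 15 of the 42 genes reached 10 CPM per kb, where the median of all genes tested was 4.75. The highest was Cacng7, an auxiliary subunit of AMPA-type glutamate receptors, at 65.7 ± 3.65 CPM per kb in Ang II and 63.3 ± 6.77 CPM per kb in saline (SD, n = 4 and n = 3). This order depends on the length used, that of all exonic bases annotated for a gene. Without division by length Cacnb2, with 13228 exonic bases, was at means of 210 CPM in Ang II and 234 CPM in saline. Cacng7, with 2441 exonic bases, was at 160 and 155 CPM. Hcn2, Cacng4 and the T-type calcium channel gene Cacna1h were also high, each between 21.2 and 24.1 CPM per kb as a mean of all 7 libraries. Within the 7 subunit classes, 35 pairs of genes stood next to each other in the order of level. In 20 of these pairs the ranges over the 7 libraries did not overlap, and in 15 they did. The level of a tested gene varied by 6.67% to 29.5% over the 7 libraries (coefficient of variation), with a median of 10.9%.

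**Figure D2:**
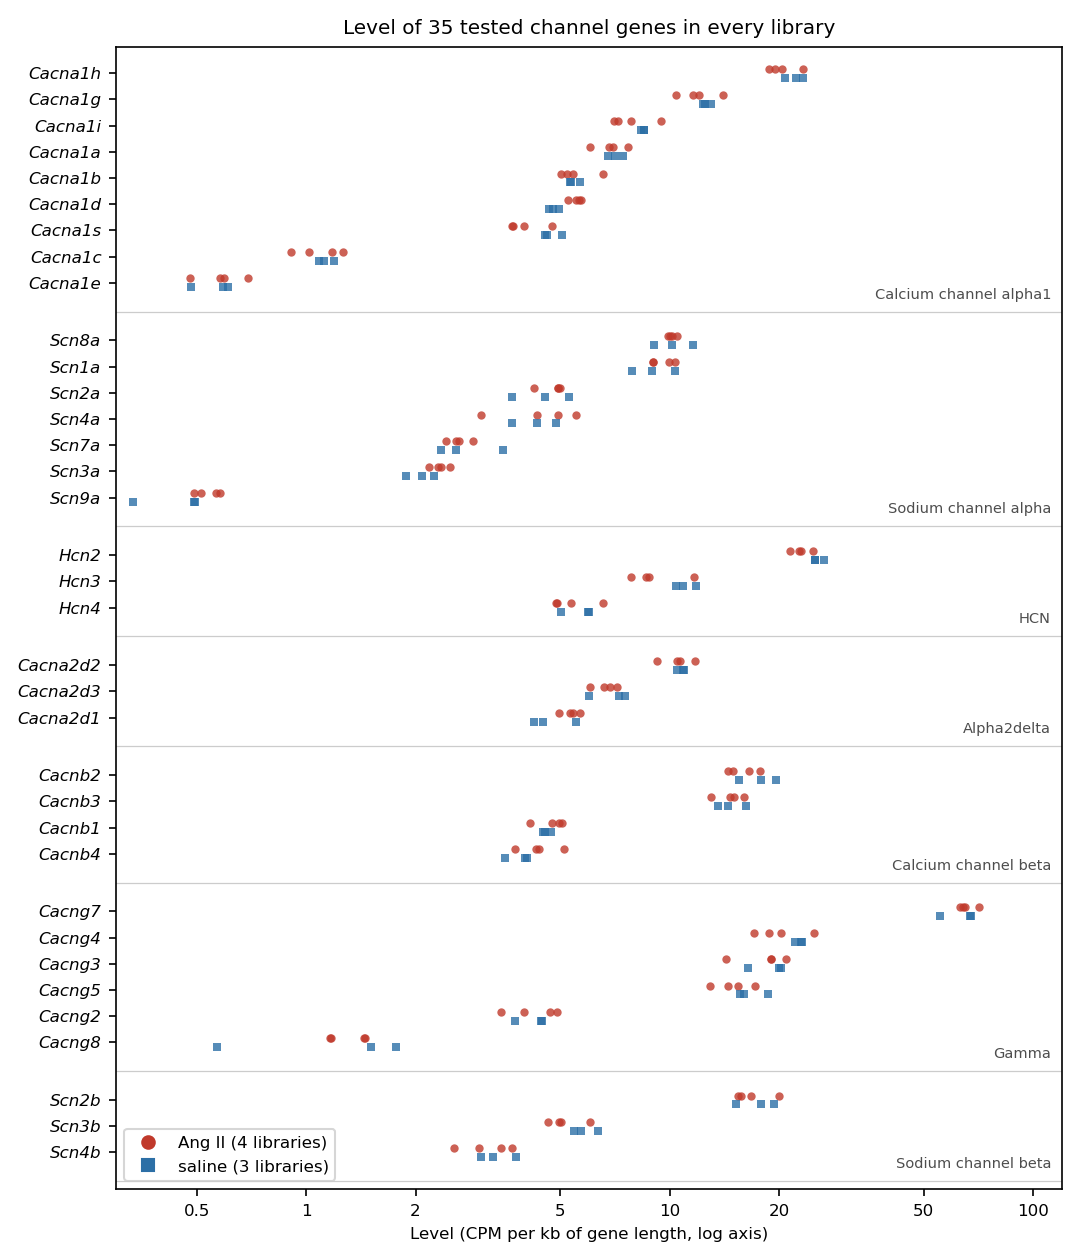
Level of 35 of the 38 tested channel genes in CPM per kb of gene length (log axis), by subunit class, with a point for each library: circles for 4 Ang II libraries, squares for 3 saline libraries. The groups overlap for every gene shown except Cacna1d and Hcn2, and levels run from below 1 CPM per kb (Cacna1e, Scn9a) to 64.7 (Cacng7, mean of all libraries).

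Among the 9 calcium channel alpha1 genes, the T-type genes led. T-type channels open near the resting potential and are the low-voltage-activated branch of the family. Cacna1h, Cacna1g and Cacna1i together made up 61.2% to 65.0% of the class sum of CPM per kb in each of the 7 libraries, a share that leaves out the photoreceptor gene Cacna1f. Cacna1h (ENSMUSG00000024112, chr17:25374285-25433783, mm10) was at 189.8, 199, 184 and 228 CPM in the Ang II libraries, against 217, 203 and 227 CPM in the saline libraries. Cacna1g (ENSMUSG00000020866, chr11:94408391-94474198) was at 105, 117, 122 and 142 CPM in the Ang II libraries, against 131, 127 and 125 CPM in the saline libraries. In both genes Ang II replicate 4 was the highest library, Ang II replicates 1 to 3 lay below every saline library, and the groups overlapped through Ang II replicate 4 alone. Log2 fold changes were -0.11 (95% interval -0.31 to 0.09) for Cacna1h, -0.071 (95% interval -0.28 to 0.14) for Cacna1g and -0.10 (95% interval -0.32 to 0.12) for Cacna1i. Without Ang II replicate 4 it was -0.18 for Cacna1h and -0.15 for Cacna1g. For Cacna1h it was -0.065 without Ang II replicate 3 and -0.063 without saline replicate 3, and for Cacna1g -0.0077 without Ang II replicate 1. The 3 genes summed to 40.4 ± 4.42 CPM per kb in Ang II (SD, n = 4) and 43.2 ± 1.14 CPM per kb in saline (SD, n = 3), and the spread between Ang II libraries was larger than the difference between the groups.

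The high-voltage-activated genes of synaptic release came below them. Cacna1a, the P/Q-type channel gene, was at 6.88 ± 0.687 CPM per kb in Ang II and 7.09 ± 0.332 CPM per kb in saline (SD, n = 4 and n = 3), and Cacna1b, the N-type channel gene, at 5.55 ± 0.694 CPM per kb in Ang II and 5.45 ± 0.200 CPM per kb in saline. Cacna1e, the R-type channel gene, was the lowest of the class at 0.585 ± 0.0866 CPM per kb in Ang II and 0.561 ± 0.0676 CPM per kb in saline. Their log2 fold changes were -0.044, 0.026 and 0.061, with edgeR adjusted p of 0.985, 0.992 and 0.985. Summed, the 3 were at 13.02 ± 1.35 CPM per kb in Ang II (SD, n = 4) and 13.1 ± 0.321 CPM per kb in saline (SD, n = 3).

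Cacna1d, an L-type gene of retinal neurons that has also been described in the pigment epithelium, was the channel gene of smallest p. It is ENSMUSG00000015968, chr14:30039939-30491455. Its level was 71.2, 69.8, 72.1 and 66.2 CPM in the Ang II libraries, against 60.2, 62.7 and 58.8 CPM in the saline libraries. Every Ang II library was above every saline library, and the nearest libraries were Ang II replicate 4 and saline replicate 2. The log2 fold change was 0.21 (95% interval 0.022 to 0.39), with an edgeR unadjusted p of 0.0309 and adjusted p of 0.982, so it did not pass over all genes. The log2 fold change stayed between 0.19 and 0.25 under all 15 alternatives. The unadjusted p was above 0.05 without Ang II replicate 1 (0.0650), Ang II replicate 2 (0.0587), Ang II replicate 3 (0.0502), saline replicate 1 (0.0769) or saline replicate 3 (0.0751). Without Ang II replicate 3 and saline replicate 2 together, the log2 fold change was 0.21 and the unadjusted p 0.0392. The share of counts in pigment epithelium markers, given above, was also higher in every Ang II library than in any saline library. Among the Ang II libraries both were highest in replicate 3 and lowest in replicate 4, whereas among the saline libraries the marker share was highest in replicate 3, where Cacna1d was lowest. The part of that tissue in the Cacna1d level was not tested. Of the exonic bases of Cacna1d 4.67% overlap the protein-coding gene Chdh on the opposite strand. Chdh had 464 counts in all libraries together and Cacna1d 7465, and how reads over the shared bases were assigned was not tested.

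Cacna1s, which encodes the L-type voltage sensor of skeletal muscle contraction, was at 24.3, 24.2, 31.1 and 26.1 CPM in the Ang II libraries, against 30.2, 33.02 and 29.8 CPM in the saline libraries. Ang II replicates 1, 2 and 4 lay below every saline library, and Ang II replicate 3 lay within the saline range. Ang II over saline gave a log2 fold change of -0.23 (95% interval -0.48 to 0.026) with an edgeR unadjusted p of 0.0747 and adjusted p of 0.982, and it was -0.31 without Ang II replicate 3. Cacna1s had 396 to 492 counts in all 7 libraries, and the part of muscle RNA in its level was not tested. Of its exonic bases 19.98% overlap an antisense gene, Gm37759, and these libraries do not mark the strand. That gene had 87 counts in all libraries together and Cacna1s 3194, and how reads over shared bases were assigned was not tested. Cacna1c, the L-type gene of heart and smooth muscle, was at 1.09 ± 0.159 CPM per kb in Ang II and 1.13 ± 0.0530 CPM per kb in saline, with a log2 fold change of -0.05 ± 0.13 (SE).

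The 10 sodium channel alpha genes were led by Scn8a, the main channel gene of nodes and axon initial segments, and Scn1a, which is prominent in inhibitory neurons. These 2 genes made up 54.4% to 58.2% of the class sum of CPM per kb in each library. Scn8a (ENSMUSG00000023033, chr15:100869858-101045938) was at 156, 159.9, 158 and 165 CPM in the Ang II libraries, against 159.9, 183 and 143 CPM in the saline libraries. Scn1a (ENSMUSG00000064329, chr2:66270778-66440840) was at 101, 100.1, 115 and 111 CPM in the Ang II libraries, against 99.8, 115 and 88.01 CPM in the saline libraries. In both genes saline replicate 3 was the lowest library and the 4 Ang II libraries lay inside the saline range or within 0.5 CPM of it. Log2 fold changes were -0.02 (95% interval -0.22 to 0.18) for Scn8a and 0.082 (95% interval -0.13 to 0.30) for Scn1a. Without saline replicate 2 the value for Scn8a was 0.075, and without saline replicate 3 that for Scn1a was -0.0010.

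Scn2a, a channel of unmyelinated axons, was at 53.8, 62.8, 63.4 and 62.7 CPM in the Ang II libraries, against 57.9, 67.2 and 46.9 CPM in the saline libraries. Ang II replicate 1 was below the other 3 Ang II libraries, which lay within 1 CPM of each other, and the saline libraries spanned a wider range. Its log2 fold change was 0.082 (95% interval -0.17 to 0.33). Scn3a, a channel gene best known from developing neurons, was at 28.7, 29.3, 30.9 and 27.1 CPM in the Ang II libraries, against 26.01, 28.04 and 23.4 CPM in the saline libraries. Its log2 fold change was 0.17 (95% interval -0.073 to 0.41), with an edgeR unadjusted p of 0.158, and it was 0.11 without saline replicate 3. Scn9a, known from sensory neurons, was low, at 6.29, 7.21, 6.58 and 7.42 CPM in the Ang II libraries, against 4.27, 6.31 and 6.30 CPM in the saline libraries. Ang II replicate 1 (6.29 CPM) lay just below the highest saline library (6.31 CPM), and the log2 fold change of 0.29 (95% interval -0.14 to 0.72) was the largest of the 38 in size, with an edgeR adjusted p of 0.982. It was 0.13 without saline replicate 1. For Scn9a limma-voom gave 0.55, with an unadjusted p of 0.0068 and an adjusted p of 0.177. With that tool 15.4% of all genes tested had an unadjusted p under 0.05, and Cacna1d had a smaller one (0.0057) than Scn9a. The antisense gene Gm13629 overlaps 1.41% of the exonic bases of Scn9a and had 197 counts in all libraries together, against 718 for Scn9a.

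Other sodium channel genes were present too. Scn4a, the skeletal muscle sodium channel gene, was at 34.8, 30.3, 39.01 and 21.4 CPM in the Ang II libraries, against 25.95, 34.3 and 30.4 CPM in the saline libraries. It varied most over the 7 libraries among the tested alpha genes (coefficient of variation 19.1%), highest in Ang II replicate 3 and lowest in Ang II replicate 4, and the log2 fold change was 0.055 ± 0.18 (SE). Its level in Ang II replicate 1 (34.8 CPM) was close to that in Ang II replicate 3 (39.0 CPM). The skeletal muscle markers took 0.00188% and 0.0280% of the counts in these libraries, and the part of muscle RNA in the Scn4a level was not tested. Scn7a, which encodes a sodium-level sensor, was at 2.63 ± 0.185 CPM per kb in Ang II and 2.81 ± 0.596 CPM per kb in saline, highest in saline replicate 2.

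**Figure D3:**
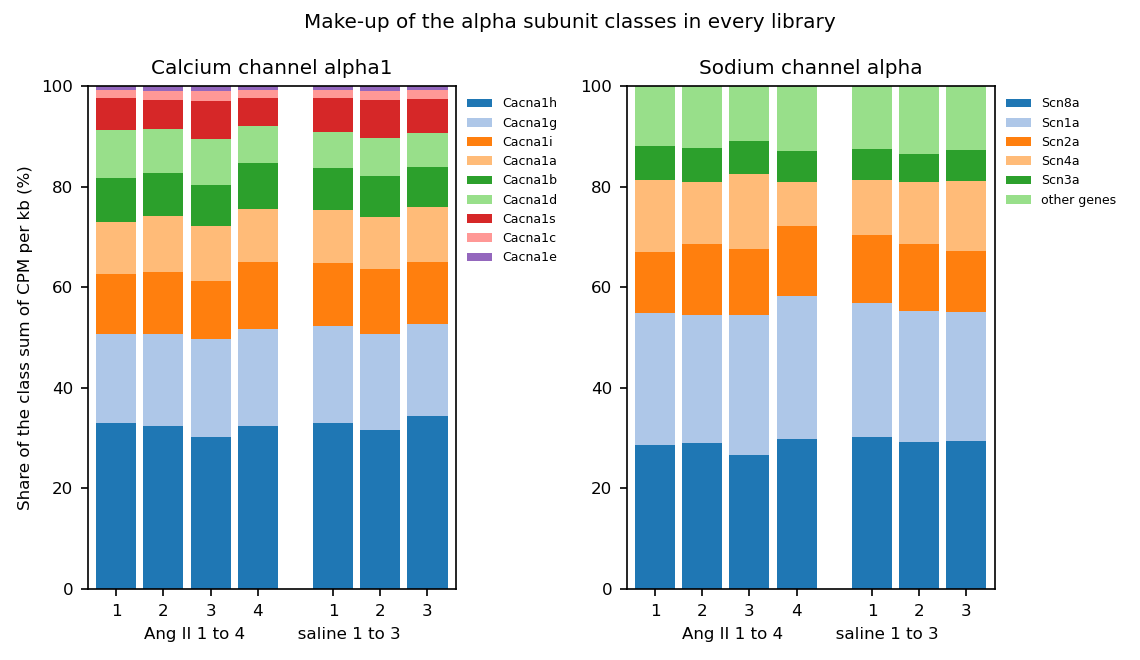
Make-up of the calcium channel alpha1 and sodium channel alpha classes in each of the 4 Ang II and 3 saline libraries, as percent of the class sum of CPM per kb; colours stand for genes, ordered by mean share from the bottom, with the remaining sodium channel genes joined at the top. Cacna1h took 30.2% to 34.4% and Scn8a 26.7% to 30.2% over the 7 libraries, and the 4 leading genes of the calcium and sodium channel classes kept their order in the means of both groups. In single libraries Scn8a was above Scn1a in 6 of 7 and Scn2a above Scn4a in 4 of 7.

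The HCN genes Hcn2, Hcn3 and Hcn4 each had a log2 fold change below 0, as did 51.1% of all genes tested. Hcn2, which is found widely in brain and heart, was at 73.6, 72.3, 68.7 and 78.99 CPM in the Ang II libraries, against 80.4, 80.3 and 85.02 CPM in the saline libraries. Every Ang II library was below every saline library, with 79.0 CPM as the highest Ang II value and 80.3 CPM as the lowest saline value. Its log2 fold change was -0.16 (95% interval -0.34 to 0.025), with an edgeR unadjusted p of 0.0856 and adjusted p of 0.982.

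Hcn3, the least studied of the family, was at 35.8, 36.5, 32.5 and 48.6 CPM in the Ang II libraries, against 45.2, 49.1 and 43.3 CPM in the saline libraries. Ang II replicates 1 to 3 lay below every saline library, while Ang II replicate 4 was close to the highest saline library. The log2 fold change of -0.26 (95% interval -0.53 to 0.014) had an edgeR unadjusted p of 0.0613 and adjusted p of 0.982, and it was -0.39 without Ang II replicate 4 and -0.14 without Ang II replicate 3 and saline replicate 2 together. Of its exonic bases 17.1% overlap Pklr on the opposite strand, a gene with 21 counts in all libraries together, and Hcn3 had 4688. Hcn4, the pacemaker channel gene of the heart, was at 29.8, 32.8, 29.97 and 40.01 CPM in the Ang II libraries, against 36.7, 36.5 and 30.7 CPM in the saline libraries, with a log2 fold change of -0.062 ± 0.13 (SE).

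Per length, Hcn2 was at 24.1, Hcn3 at 10.01 and Hcn4 at 5.52 CPM per kb as means of all 7 libraries, with no overlap between these genes across the libraries. The rod, cone and bipolar markers were below 0 as well, as given above, with 7 of 10 rod markers, 0 of 8 cone markers and 2 of 9 bipolar markers at an unadjusted edgeR p under 0.05 (4.62% of all genes tested) and 0 of them past the adjusted threshold. Their part in the HCN values was not tested.

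**Figure D4:**
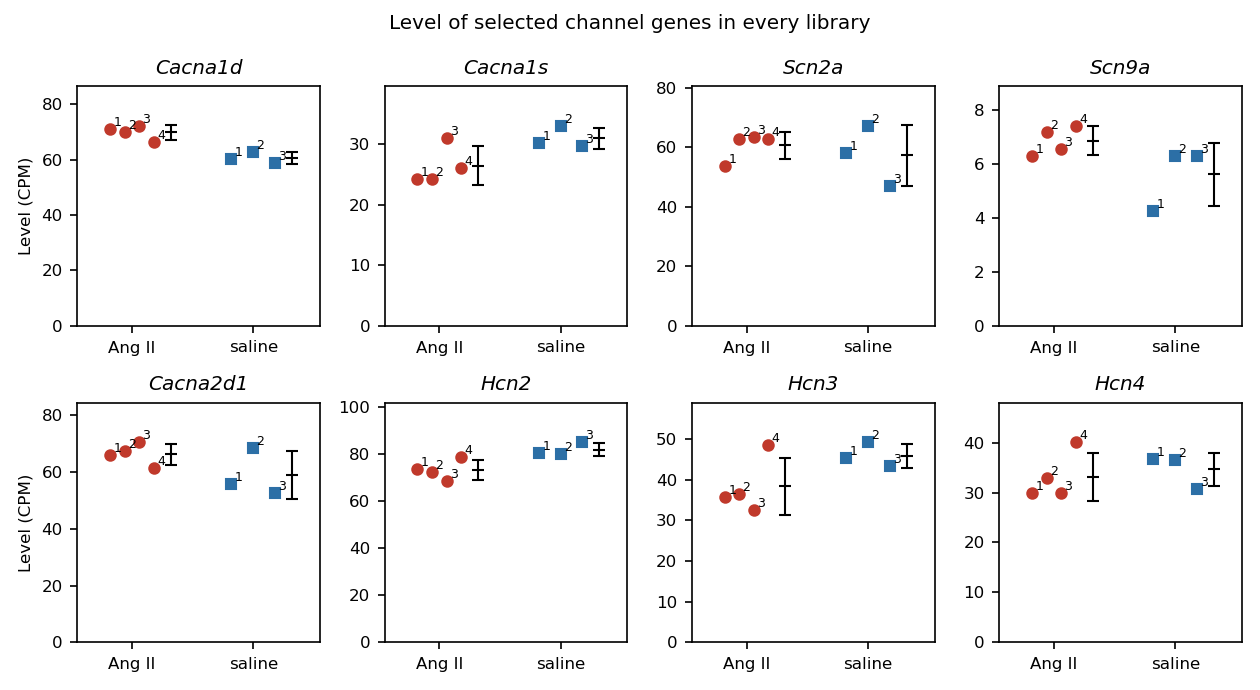
Level in CPM (linear axis from 0) of 8 channel genes in each Ang II library (circles, left) and saline library (squares, right), with replicate numbers beside the points; black marks are the mean and SD of each group (n = 4 and n = 3). Cacna1d is higher and Hcn2 lower in every Ang II library than in any saline library, and the groups overlap for the other 6 genes.

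Of the 17 tested auxiliary subunit genes, 0 had an edgeR unadjusted p under 0.05 in the main fit, against 4.62% of all genes tested. Under some alternatives a few did. They were Cacng4, Cacng5 and Scn3b with a replicate block (7.67% of all genes) and Cacng4 and Scn3b without Ang II replicate 4 (6.77%). Cacna2d1 did without saline replicate 2 (5.17%) and without it and Ang II replicate 3 (5.46%), and Cacnb2 without saline replicate 3 (7.63%). With limma-voom they were Cacna2d1 and Cacng4 (15.4%). The 3 alpha2delta genes described here encode extracellular subunits that raise the number of channels at the membrane, and the products of Cacna2d1 and Cacna2d2 bind gabapentinoid drugs. Among these 3, which leave out the photoreceptor gene Cacna2d4, Cacna2d2 led at 10.5 ± 1.04 CPM per kb in Ang II and 10.8 ± 0.251 CPM per kb in saline. Cacna2d3 followed at 6.67 ± 0.485 CPM per kb in Ang II and 6.93 ± 0.820 CPM per kb in saline (SD, n = 4 and n = 3 for both genes). Cacna2d2 was at 73.4, 84.9, 83.01 and 93.5 CPM in the Ang II libraries, against 83.5, 87.2 and 86.6 CPM in the saline libraries. Cacna2d3 was at 62.6, 57.4, 52.7 and 59.9 CPM in the Ang II libraries, against 52.3, 63.1 and 65.9 CPM in the saline libraries. The groups overlapped in both genes, with log2 fold changes of -0.035 (95% interval -0.23 to 0.16) and -0.055 (95% interval -0.28 to 0.17). Cacna2d1, the alpha2delta gene of smallest p, was at 65.8, 67.2, 70.3 and 61.4 CPM in the Ang II libraries, against 55.6, 68.5 and 52.6 CPM in the saline libraries. Saline replicate 2 lay inside the Ang II range, and the other 2 saline libraries lay below every Ang II library. The log2 fold change was 0.17 (95% interval -0.055 to 0.39) with an edgeR adjusted p of 0.982, and it was 0.29 without saline replicate 2 and 0.10 without saline replicate 3.

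The calcium channel beta genes encode cytosolic subunits that carry the channel to the membrane. Cacnb2, the beta gene of photoreceptor synapses, was at 219, 234, 198 and 191 CPM in the Ang II libraries, against 236, 259.5 and 206 CPM in the saline libraries. Saline replicate 2 was the highest library and Ang II replicate 4 the lowest, and the log2 fold change was -0.15 (95% interval -0.37 to 0.065). It was -0.073 without saline replicate 2, -0.23 without saline replicate 3 and -0.043 without Ang II replicate 3 and saline replicate 2 together. Cacnb3 was at 58.6, 52.1, 60.4 and 64.1 CPM in the Ang II libraries, against 57.9, 54.3 and 64.9 CPM in the saline libraries, and the groups lay over each other, with a log2 fold change of -0.0066 ± 0.10 (SE). Cacnb4, known from cerebellar and other central neurons, was at 33.7, 38.4, 39.3 and 45.9 CPM in the Ang II libraries, against 36.4, 35.96 and 31.7 CPM in the saline libraries. Ang II replicate 1 lay inside the saline range and the other 3 Ang II libraries above it. Its log2 fold change was 0.18 (95% interval -0.07 to 0.43), with an edgeR unadjusted p of 0.144 and adjusted p of 0.982, and it was 0.10 without Ang II replicate 4. Of its exonic bases 16.0% overlap the opposite-strand gene A430018G15Rik, which had 14 counts in all libraries together. Cacnb1, the beta subunit of the skeletal muscle channel, was at 4.72 ± 0.414 CPM per kb in Ang II and 4.58 ± 0.128 CPM per kb in saline, and its log2 fold change was 0.043 ± 0.12 (SE). Per length, Cacnb2 (16.7 CPM per kb) and Cacnb3 (14.7) overlapped, as did Cacnb1 (4.66) and Cacnb4 (4.16), with a wide gap between these pairs.

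Most of the gamma genes encode TARPs, membrane proteins that bind AMPA receptors rather than calcium channels. Cacng7 alone made up 45.3% to 58.1% of the gamma class sum in each library. It was at 158, 156, 173 and 154 CPM in the Ang II libraries, against 163, 136 and 165 CPM in the saline libraries, with saline replicate 2 as the lowest library and a log2 fold change of 0.053 (95% interval -0.14 to 0.25). Cacng4 was at 67.1, 72.3, 60.9 and 89.1 CPM in the Ang II libraries, against 82.3, 82.9 and 79.1 CPM in the saline libraries. Ang II replicates 1 to 3 lay below every saline library and Ang II replicate 4 above them all, and the log2 fold change was -0.17 (95% interval -0.41 to 0.074), with -0.28 without Ang II replicate 4 and -0.090 without Ang II replicate 3. Cacng5 was at 55.6, 58.97, 49.5 and 65.8 CPM in the Ang II libraries, against 61.4, 71.4 and 59.8 CPM in the saline libraries, and its log2 fold change was -0.16 (95% interval -0.39 to 0.073). That of Cacng5 was -0.089 without Ang II replicate 3, -0.079 without saline replicate 2 and -0.013 without both. Cacng4 and Cacng5 had the smallest p of the class, 0.158 and 0.164 without adjustment, with edgeR adjusted p of 0.982. Cacng3 and Cacng2, the stargazin gene, had log2 fold changes of -0.044 ± 0.13 and 0.011 ± 0.14 (SE). Cacng8 was low, with 45 to 56 counts in the Ang II libraries and 67, 19 and 58 in saline replicates 1 to 3, and its interval of -0.69 to 0.73 was the widest of the 38.

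The 4 sodium channel beta genes encode subunits with a single membrane span and an immunoglobulin fold, which also act in cell adhesion. Scn2b was at 78.03, 73.3, 71.6 and 92.9 CPM in the Ang II libraries, against 83.00, 70.7 and 90.4 CPM in the saline libraries. Ang II replicate 4 was the highest library and saline replicate 2 the lowest, and the log2 fold change was -0.044 (95% interval -0.28 to 0.19). Scn3b, the beta gene of smallest p, was at 27.4, 27.1, 25.2 and 32.9 CPM in the Ang II libraries, against 31.1, 34.8 and 29.9 CPM in the saline libraries. Ang II replicates 1 to 3 lay below every saline library and Ang II replicate 4 inside the saline range. Ang II over saline gave a log2 fold change of -0.18 (95% interval -0.44 to 0.074) with an edgeR adjusted p of 0.982, and it was -0.067 without Ang II replicate 3 and saline replicate 2 together. Scn4b was at 14.9, 12.7, 17.1 and 18.4 CPM in the Ang II libraries, against 16.3, 18.9 and 15.04 CPM in the saline libraries, and its log2 fold change was -0.085 ± 0.15 (SE). Per length the order Scn2b, Scn3b, Scn4b held in all 7 libraries with no overlap between neighbours.

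A few libraries held the extreme values of many of these genes. Ang II replicate 4 was the highest library for 13 of the 38 tested genes (34.2%) and the lowest for 3 (7.89%). Over all genes tested it was the highest for 12.3% and the lowest for 12.2%. Ang II replicate 1 was the lowest for 10 of the 38 (26.3%) and the highest for 0, against 10.8% each over all genes tested. Saline replicate 2 was the highest for 11 (28.9%) and the lowest for 3 (7.89%), against 22.4% and 23.2% over all genes tested. Ang II replicate 3 was the highest for 9 (23.7%) and the lowest for 8 (21.1%), against 19.6% and 17.5%. Saline replicate 3 was the lowest for 8 (21.1%), against 14.9%. Relative to its mean over all libraries, the median channel gene lay 0.13 higher on the log2 scale in Ang II replicate 4 and lower by 0.11 in Ang II replicate 1 (median deviation -0.11). These 2 Ang II libraries were picked as the extremes after their values were seen. The log2 fold change between the groups had a median of -0.044 over the 38 genes, and of 0.082 without regard to sign. A distance between 2 picked libraries and a median over genes are not like measures.

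The 4 genes that could not be tested are known from other tissues. Scn10a and Scn11a, sodium channel genes of sensory neurons, were at or near 0. Scn10a had 0, 0, 1 and 1 counts in the Ang II libraries, against 0, 0 and 0 counts in the saline libraries, and Scn11a had 4, 1, 1 and 3 counts in the Ang II libraries, against 2, 0 and 2 counts in the saline libraries. Cacng1, the gamma subunit gene of the skeletal muscle channel, had 2, 1, 4 and 2 counts in the Ang II libraries, against 2, 0 and 4 counts in the saline libraries. Cacng6, also a muscle gamma gene, had 1, 0, 13 and 0 counts in the Ang II libraries, against 0, 0 and 0 counts in the saline libraries. Its 13 counts came from Ang II replicate 3, the library with the most skeletal muscle counts, and Cacng1 had 4 counts there and 4 in saline replicate 3. A count of 0 allows up to 3 counts, or 0.170 to 0.210 CPM in these libraries, by counting error alone.

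Position and length were not used to choose the genes. The tested channel genes span a median of 105 kb of genome, against 25.3 kb for the 14253 protein-coding genes tested, and have a median exonic length of 8.33 kb against 4.46 kb. Several lie in clusters. Scn3a, Scn2a, Scn1a, Scn9a and Scn7a lie within 1328 kb of chromosome 2 (chr2:65457118-66784914, mm10). Of these 5 genes 4 had a log2 fold change above 0, as did 48.9% of all genes tested, and Scn7a had one of -0.10. Relative to the mean over all libraries, their median deviation on the log2 scale was lowest in saline replicate 3 (-0.23) and highest in saline replicate 2 (0.15). Levels of the 5 genes ran from 0.496 CPM per kb for Scn9a to 9.35 CPM per kb for Scn1a. Cacng7, Cacng8 and Cacng6 lie within 103 kb of chromosome 7 (chr7:3332955-3435667), at 64.7, 1.30 and 0.0635 CPM per kb as means of all libraries. Cacng1, Cacng4 and Cacng5 lie within 212 kb of chromosome 11 (chr11:107703218-107915055), at 0.105, 21.3 and 15.7 CPM per kb. Neighbours in a cluster thus differed widely in level.

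Promoters of 31 of the 42 genes were found in RefSeq (GRCm38.p6, the mm10 assembly). The 150 bases before the start are shown for the gene in which Ang II was higher without overlap (Cacna1d), the gene in which it was lower without overlap (Hcn2), and the leading genes by level of the gamma and sodium channel alpha classes (Cacng7 and Scn8a). Each is given 5′ to 3′ on the strand of its gene, and capitals mark the GC box, GGGCGG on either strand, where adjoining or overlapping matches run together.
Cacna1d (chr14:30353487-30353636, minus strand, a start inside the gene): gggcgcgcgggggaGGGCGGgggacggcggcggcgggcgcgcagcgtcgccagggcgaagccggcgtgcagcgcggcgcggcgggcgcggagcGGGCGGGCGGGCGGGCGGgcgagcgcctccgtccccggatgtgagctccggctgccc
Hcn2 (chr10:79716484-79716633, plus strand): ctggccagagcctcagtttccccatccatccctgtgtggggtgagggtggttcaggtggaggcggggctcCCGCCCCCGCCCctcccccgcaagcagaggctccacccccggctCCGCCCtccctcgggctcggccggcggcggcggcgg
Cacng7 (chr7:3332675-3332824, plus strand): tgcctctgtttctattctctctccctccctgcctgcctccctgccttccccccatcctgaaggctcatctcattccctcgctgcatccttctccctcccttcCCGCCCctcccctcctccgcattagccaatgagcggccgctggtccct
Scn8a (chr15:100870495-100870644, plus strand, a start inside the gene): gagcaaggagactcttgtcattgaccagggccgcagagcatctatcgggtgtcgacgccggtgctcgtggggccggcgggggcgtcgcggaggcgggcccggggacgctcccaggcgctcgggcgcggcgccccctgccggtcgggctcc
The GC content of these windows was 87.3%, 76.7%, 62.7% and 76.0%. They held 5, 3, 1 and 0 GC boxes, counting overlapping matches apart. In windows of this length a GC box was present in 14 of 42 promoters of the channel genes (33.3%, several genes having more than 1 start) and in 28.6% of all 32851 promoters in the table. The CRX and OTX2 core TAATCC, bound by homeobox factors of photoreceptors and bipolar cells, was present in 2 of 42 (4.76%) against 3.60%, and the TATA box TATAAA in 2 of 42 (4.76%) against 7.57%, each searched on both strands. Another start of Cacna1d near the 5′ end of the gene (chr14:30491107-30491406) and another of Scn8a (chr15:100936021-100936320) are not shown. In a window of 250 bases the GC content was 39.6% at that Cacna1d start and 86.4% at the one shown. The Cacna1d start not shown had a TATA box and no GC box in that window. For Scn8a the GC content was 53.2% at the start not shown and 68.0% at the one shown. A match in letters does not show that a factor binds there.

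Genes that work with these channels were read from the same fit. Of 59 partner genes listed by role, 58 were tested, 30 had a log2 fold change above 0 and 28 below 0, and the median was 0.0032. With edgeR 0 passed, and 1 of 58 had an unadjusted p under 0.05 (4.62% of all genes tested). DESeq2 and limma-voom found 2 and 3 of the 58 at that unadjusted level, against 4.67% and 15.4% of all genes tested. The edgeR gene was Sptbn4, which encodes the beta-IV spectrin that anchors sodium channels at the axon initial segment, at 77.4, 72.4, 91.1 and 103 CPM in the Ang II libraries, against 104, 100.03 and 103 CPM in the saline libraries. Ang II replicate 4 lay inside the saline range and the other 3 Ang II libraries below it. The log2 fold change was -0.25 ± 0.11 (SE) with an edgeR adjusted p of 0.982. Ank3, the ankyrin-G gene of the same scaffold, was at 334 ± 18.2 CPM in Ang II and 325 ± 18.8 CPM in saline (SD, n = 4 and n = 3), and its log2 fold change was 0.04 ± 0.086. Fgf12, whose product binds sodium channel tails, had one of 0.12 ± 0.10.

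Among 18 calcium channel partners, 17 were tested, and the active zone gene Pclo and the adaptor gene Stac2 had the smallest p, with log2 fold changes of 0.17 ± 0.10 and -0.13 ± 0.10 (SE). Without saline replicate 3 these were 0.073 and -0.072. All 4 HCN partners lay below 0, as did 51.1% of all genes tested. Pex5l, the gene of the main auxiliary subunit of HCN channels, was at 461 ± 43.9 CPM in Ang II and 479.6 ± 30.2 CPM in saline. Its fold change on the log2 scale was -0.057 ± 0.10, and Kctd3 and Lrmp had -0.13 ± 0.10 and -0.78 ± 0.64. Lrmp was low, with 12, 4, 11 and 1 counts in the Ang II libraries and 6, 13 and 15 in the saline libraries. Of 25 genes of calcium stores, calcium extrusion and sodium leak, 12 lay above 0 and 13 below. Ryr1, the calcium release channel gene of skeletal muscle, was at 2.95, 3.06, 12.2 and 3.50 CPM in the Ang II libraries, against 2.91, 2.45 and 2.20 CPM in the saline libraries, high in Ang II replicate 3 alone, the library with the most skeletal muscle counts, and its log2 fold change was 1.10 ± 0.54, against 0.33 without that library. The part of muscle RNA in the Ryr1 and Cacng6 values was not tested. Ryr2, the release channel gene of heart and brain, had a log2 fold change of 0.15 ± 0.088, and the sodium leak channel gene Nalcn was at 79.5 ± 8.91 CPM in Ang II and 79.4 ± 2.27 CPM in saline, with one of 0.0029 ± 0.10. In these lists too, 0 genes passed the adjusted threshold.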

How the data were processed

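Poly-A selected retina RNA was sequenced, and the authors deposited raw counts per gene, whole numbers with no scaling, beside each gene's length in bases. Per the submitters' processing notes, CASAVA, HISAT2 2.0.5 and featureCounts 1.5.0-p3 were used with build mm10. The annotation, the strand setting and the treatment of reads with several matches are not given in the sources used here. Per the labels' protocols no step marks the strand.

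Each count column was tied to its sample through the description in the labels, with 0 columns left over, and the titles gave the groups. Counts were tested with edgeR 4.0.16 in R 4.3.3 (quasi-likelihood, robust, two-sided, group as sole term) over all 17078 genes kept by filterByExpr, with TMM scaling and Benjamini-Hochberg adjustment at 0.05. Fold changes are log2 values with saline as the denominator. Their SE is the size of the log2 value divided by the root of the F statistic. CPM uses TMM-scaled library sizes. Alternatives were RLE size factors, library size, no and a stricter filter (at least 1 CPM in 3 libraries), DESeq2 1.42.0, limma-voom with quality weights (limma 3.58.1), a replicate block and leaving out each library. Exon overlaps and the 42 gene positions were checked against GENCODE M21, where all 42 had the same start and end. All library pairs differed by more than sampling noise, with a ratio of chi-square to its degrees of freedom of 9.81 to 24.8. The test scripts were tested on simulated data.

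Per-library values are given for the 2 genes of highest level per length and the 2 of smallest p in each class (1 for alpha2delta), which names 22 genes, and for Scn2a, Scn4a and Hcn4, chosen after their values were seen. Among partners, the 2 of smallest p per list and Pex5l, Ank3 and Nalcn are named. The gene groups, partner lists and marker lists were chosen with earlier results of these data known. Of the 42 genes, 3 enter the counts and medians and are not reported by name here.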

Additional observations from a re-analysis of the deposited data

Results flagged for a closer look

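In 3 of 52 sets of 4 Ang II values examined (42 genes and 10 class or group sums), 1 library lay far from the other 3, measured as its gap to the nearest value over the whole range, past the 95% critical value of Dixon's test. Chance flags about 1 in 20 groups. For Scn2a, a sodium channel gene of axons, the ratio was 0.926, with Ang II replicate 1 at 53.8 CPM and the others at 62.7 to 63.4 CPM. For Cacng6, a muscle gamma gene, it was 0.931, with 13 counts in Ang II replicate 3 and 0 or 1 in the others. For the summed level of the L-type genes Cacna1c, Cacna1d and Cacna1s it was 0.896, with Ang II replicate 3 at 11.7 CPM per kb and the others at 10.25 to 10.4 CPM per kb, where the saline libraries were at 10.5, 11.2 and 10.3 CPM per kb.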

How the results depend on the processing

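Under all 15 alternatives 0 channel genes passed the adjusted threshold, and 310 of 330 recomputed fold changes of the 22 named channel genes kept their direction. The other 20 concern 8 genes with values near 0. With library size as the scaling, which moved the median of all genes to 0.042, the log2 fold change was 0.028 for Scn8a, 0.012 for Cacna2d2, 0.040 for Cacnb3 and 0.0015 for Scn2b, and 2 partner genes had an unadjusted p under 0.05 (5.06% of all genes). With limma-voom it was 0.088 for Cacna2d3 and -0.021 for Cacng7. Without Ang II replicate 3 and saline replicate 2 together, chosen after seeing the data, it was 0.082 for Scn8a, 0.021 for Cacna2d3 and -0.074 for Cacng7, the median of the alpha genes was 0.059, and 3 channel and 4 partner genes had an unadjusted p under 0.05 (5.46% of all genes). Leaving out 1 library at a time gave -0.091 to 0.024 for Cacna2d2, -0.065 to 0.074 for Cacnb3, -0.17 to 0.0071 for Scn4b, -0.14 to 0.046 for Scn2b, -0.096 to 0.075 for Scn8a, -0.035 to 0.11 for Cacng7, -0.0010 to 0.18 for Scn1a, -0.15 to 0.019 for Cacna2d3 and -0.062 to 0.075 for the median of the alpha genes (0.075 without saline replicate 2). It gave 0 to 6 channel genes (6 without Ang II replicate 4, with 6.77% of all genes) and 0 to 3 partner genes at an unadjusted p under 0.05, and 0 to 117 genes called over all genes (117 without saline replicate 3). With no low-count filter 98 genes were called over all genes, and 3 of 42 channel and 2 partner genes had an unadjusted p under 0.05 (5.41% of all genes). DESeq2 called 35 (1 channel and 2 partner genes at that unadjusted level) and limma-voom 142 (7 and 3). With the replicate block 56 genes were called, and 6 channel and 5 partner genes had an unadjusted p under 0.05 (7.67% of all genes). The labels do not say that shared numbers pair the libraries. Same-numbered deviations correlated at -0.068 to 0.043, and 0 of 3 Ang II and 1 of 3 saline libraries were closest to their own number. The median of the auxiliary genes lay between -0.068 and 0.046 over all 15 alternatives, and the level per length of the leading gene of each class moved by less than the spread between replicates with library size and without each library. The cause of these changes was not tested. At this depth genes such as Cacng8 and Scn9a have wide intervals, and the 4 untested genes lie near the limit of detection.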
